A study of Mus musculus with 3 samples.

Results

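The platelet-derived growth factor (PDGF) family in the mouse is made of 4 ligand genes, *Pdgfa*, *Pdgfb*, *Pdgfc*, and *Pdgfd*, and 2 receptor genes, *Pdgfra* and *Pdgfrb*. These 6 genes were taken by symbol from the 28692 genes counted in scRNA-Seq libraries of whole lung. The lungs were taken on postnatal day 14 from 3 C57BL/6 pups, wild type and raised in room air (RA), numbered mice 2, 3, and 4, which form 1 group and are the replicates (n = 3). No treated or mutant group was analyzed here, so the genes were compared between cell types of the same lungs. The question put to the data was which cells of the growing lung transcribe the ligands and which transcribe the receptors.

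PDGF ligands are secreted dimers that activate receptor tyrosine kinases. PDGFRA binds PDGF-A, PDGF-B, and PDGF-C chains, whereas PDGFRB binds mainly PDGF-B and PDGF-D. PDGF-C and PDGF-D are secreted in a latent form and are activated outside the cell by proteases such as tissue plasminogen activator (*Plat*), urokinase (*Plau*), and matriptase (*St14*). In the developing lung, epithelial PDGF-A is known to act on PDGFRA-positive stromal cells that become alveolar myofibroblasts, and endothelial PDGF-B is known to recruit PDGFRB-positive pericytes to vessels.

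In GRCm38, with GENCODE M21 gene models, *Pdgfa* (ENSMUSG00000025856) lies on the minus strand at chr5:138976014-138997370. *Pdgfra* (ENSMUSG00000029231) lies on the same chromosome on the plus strand at chr5:75152292-75198215. *Pdgfb* (ENSMUSG00000000489) lies on the minus strand at chr15:79995874-80014977, and *Pdgfc* (ENSMUSG00000028019) on the plus strand at chr3:81036416-81214040. *Pdgfd* (ENSMUSG00000032006) lies on the plus strand at chr9:6168584-6378850. Genes on the opposite strand overlap *Pdgfa* (6330403L08Rik), *Pdgfb* (Gm41361), *Pdgfc* (Gm16000), *Pdgfd* (*Ddi1*), and *Pdgfra* (Gm42802 and Gm42803). Whether strand was used in the counting is not given in the sources used here. RefSeq promoter windows, from 250 bases before to 50 bases after a gene start in GRCm38.p6, matched 4 of the 6 genes with 5 windows. The 3 windows printed belong to a ligand that was highest in epithelial cells, a ligand that was highest in endothelial cells (ECs), and a receptor that was nearly confined to stromal cells. Capitals mark a GC box (GGGCGG or its reverse complement CCGCCC) or a TATA box (TATAAA on either strand).
*Pdgfa*, chr5:138994895-138995194, minus strand: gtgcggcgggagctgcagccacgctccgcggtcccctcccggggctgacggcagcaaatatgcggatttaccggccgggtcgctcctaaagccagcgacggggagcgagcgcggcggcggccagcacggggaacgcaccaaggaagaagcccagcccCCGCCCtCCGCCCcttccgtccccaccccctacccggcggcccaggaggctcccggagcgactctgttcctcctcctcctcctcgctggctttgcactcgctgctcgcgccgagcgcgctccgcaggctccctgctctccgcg
*Pdgfd*, chr9:6168236-6168535, plus strand: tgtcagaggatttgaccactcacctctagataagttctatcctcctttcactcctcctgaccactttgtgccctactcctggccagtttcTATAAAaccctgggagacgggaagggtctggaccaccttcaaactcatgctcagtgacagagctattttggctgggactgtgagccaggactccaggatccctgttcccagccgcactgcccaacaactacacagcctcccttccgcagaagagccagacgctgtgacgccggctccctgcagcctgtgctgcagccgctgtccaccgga
*Pdgfra*, chr5:75152001-75152300, plus strand: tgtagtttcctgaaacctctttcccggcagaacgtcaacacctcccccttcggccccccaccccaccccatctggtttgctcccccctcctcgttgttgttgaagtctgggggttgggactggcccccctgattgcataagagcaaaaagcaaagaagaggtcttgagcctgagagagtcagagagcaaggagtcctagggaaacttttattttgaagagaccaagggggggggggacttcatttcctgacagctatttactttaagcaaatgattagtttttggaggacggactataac
The printed *Pdgfa* window had a GC content of 73.3% and 2 GC boxes. At least 1 GC box was held by 35.7% of all 32851 windows of this length. The other *Pdgfa* window, at chr5:138994232-138994531, had a GC content of 67.0% and 1 GC box. Both *Pdgfa* windows lie inside the span of the gene model given above, not at its start. The *Pdgfd* window had a GC content of 56.7% and 1 match to the TATA box letters, which 13.6% of all windows held. The match began at letter 91, within the 250 bases before the gene start, and its function was not tested. This window ends before the *Pdgfd* gene model given above begins. The *Pdgfra* window had a GC content of 51.0%, near the median of 52.7% over all windows, and neither motif was among its letters. *Pdgfb* and *Pdgfrb* were not matched.

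The libraries held 3034, 3135, and 3475 cells, of which 7642 were kept, with a median of 7119, 4853, and 6453 unique molecular identifiers (UMIs) per cell in mice 2, 3, and 4. A UMI marks 1 captured transcript, and levels are given as counts-per-million (CPM) of the summed cells of a type in 1 mouse. Since 1 UMI stands for 1 transcript end whatever the transcript's length, UMIs of different genes are set side by side without a length correction. Cells were clustered without the 6 genes, and clusters were named from marker genes, so a name such as "AT1-like" describes the markers. The *Col14a1*-type fibroblasts named below were 1 cluster of 100 cells that was also led by cartilage genes (*Col2a1*, *Col11a1*, and *Acan*). In 16 of these cells, cartilage markers had more UMIs than the *Col14a1*-type markers. A class was given to 959 ECs, 1332 epithelial, 1540 stromal, and 3025 immune cells, and 786 cells had none. The 1782 B-cell-like cells, with a median of 3959.5 UMIs, served as the background, where each of the 6 genes was at or below 1.13 CPM. Pairs of libraries shared 2 to 5 cell barcodes, and 201 cells were marked as doublets and kept.

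The 6 genes differed widely in abundance. The kept cells held 10375 *Pdgfrb* and 9504 *Pdgfra* UMIs, against 6401 of *Pdgfa*, 4413 of *Pdgfb*, 690 of *Pdgfd*, and 185 of *Pdgfc*. By class, epithelial cells held 71.7% ± 7.18 of a mouse's *Pdgfa* UMIs (SD, n = 3), and stromal cells 21.5% ± 4.71. ECs held 62.2% ± 3.95 of the *Pdgfb* UMIs, and epithelial cells 25.3% ± 7.89. *Pdgfd* was divided between ECs (54.5% ± 0.825) and stromal cells (40.1% ± 1.58), and *Pdgfc* was found mainly in stromal cells (58.7% ± 7.39). Stromal cells held 97.6% ± 0.728 of the *Pdgfra* and 96.2% ± 1.81 of the *Pdgfrb* UMIs. The ligands *Pdgfa* and *Pdgfb* were thus most often found in other classes than the receptors, whereas *Pdgfc* and *Pdgfd* were in part found in the same class.

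*Pdgfa*, which encodes the chain of the PDGF-AA dimer, was highest in AT1-like cells, the thin gas-exchange cells of the alveolus. Its level there was 979, 826, and 1040 CPM in mice 2, 3, and 4 (948 ± 110, SD, n = 3), and no other type reached it in any mouse. The 166 AT1-like cells held 2696 UMIs, 42.1% of all *Pdgfa* UMIs. AT2-like cells, which make surfactant, were at 92.2, 82.7, and 86.7 CPM (87.2 ± 4.79). *Pdgfa* was 8.65-fold higher in AT1-like than in AT2-like cells (log2 fold change 3.11 ± 0.18 SE, adjusted p = 3.8e-21). Club-like cells of the airway had 128, 220, and 162 CPM (170 ± 46.8), above AT2-like and below AT1-like cells in every mouse. The club-like type rested on 96 cells with a median of 788 UMIs, 67 of them from mouse 4.

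The AT1-like cells came from a pair of clusters that differed in depth. In the shallower cluster (129 cells, median depth 6208 UMIs) *Pdgfa* was at 1267, 1186, and 1478 CPM (1310 ± 151). In the deeper cluster (37 cells, 5 of them marked doublets, median depth 35994 UMIs) it was at 662 ± 77.7 CPM. This deeper cluster had 111200 ± 7817 CPM of the 6 AT2 markers, against 2185 ± 2244 CPM in the other cluster and 199600 ± 11430 CPM in AT2-like cells. Both clusters were far above AT2-like cells in *Pdgfa*, and without the deeper cluster the log2 fold change against AT2-like cells was 3.48.

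Among stromal cells, *Pdgfa* was highest in pericyte-like cells, the mural cells of capillaries, at 287, 412, and 390 CPM (363 ± 66.8). Smooth muscle-like cells had 135, 137, and 145 CPM (139 ± 5.15), and myofibroblast-like cells had 45.8, 41.1, and 43.5 CPM (43.4 ± 2.36). These 3 stromal types did not overlap. Small groups ranked beside pericyte-like cells and overlapped with them, namely Schwann-like cells (27 cells) at 132, 473, and 586 CPM and megakaryocyte- or platelet-like cells (31 cells, median depth 711 UMIs) at 521, 95.4, and 599 CPM. *Pdgfa* was 2.22-fold higher in pericyte-like than in smooth muscle-like cells (log2 1.15 ± 0.21, adjusted p = 1.4e-05). It was lower in myofibroblast-like than in pericyte-like cells (log2 −2.89 ± 0.23, adjusted p = 1.1e-15) and lower than in smooth muscle-like cells (log2 −1.74 ± 0.20, adjusted p = 5.2e-10). In the pericyte-like cells that held no UMI of an epithelial marker (128 of 134 cells), the level was 369 ± 69.9 CPM, and in 264 smooth muscle-like cells without such a UMI it was 139 ± 6.69 CPM. AT2 markers, which were not among these epithelial markers, had a UMI in 88.1% of pericyte-like and 91.7% of smooth muscle-like cells. The split therefore does not show which cells carried epithelial RNA. The *Col13a1*-type fibroblasts were at 24.8 CPM, and the arterial-like, venous-like, and capillary ECs at 13.3 to 17.6 CPM. Lymphatic-like ECs were at 67.5 to 96.8 CPM in 23 cells. Of their 31 UMIs, 28 lay in the 12 cells marked as doublets.

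Across the classes, *Pdgfa* was at 197 CPM in epithelial cells, 75.03 CPM in stromal cells, and 17.8 CPM in ECs. It was higher in epithelial than in stromal cells (log2 1.76 ± 0.17, adjusted p = 2.4e-07) and lower in ECs than in either of them (log2 −2.18 ± 0.23 against stromal cells, adjusted p = 8.5e-07, and log2 −3.94 ± 0.21 against epithelial cells, adjusted p = 3.5e-10). Pericyte-like cells, although stromal, stood above AT2-like cells in every mouse.

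**Figure D1:**
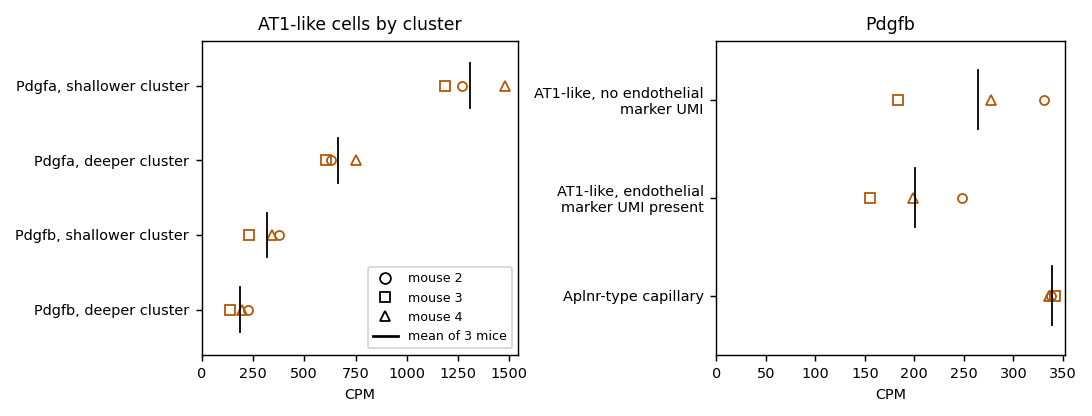
The left panel shows *Pdgfa* and *Pdgfb* in the shallower (129 cells) and deeper (37 cells) cluster of AT1-like cells, and the right panel *Pdgfb* in AT1-like cells without and with a UMI of an EC marker beside *Aplnr*-type capillary ECs, all in CPM on linear axes with 1 symbol per mouse and a line at the mean. The shallower cluster was higher in both genes (1310 against 662 CPM for *Pdgfa*). AT1-like cells without an EC-marker UMI were at 264 CPM, and those with one, which were deeper, at 201 CPM.

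*Pdgfb*, the ligand known for recruiting pericytes, was highest in the capillary endothelium. The *Car4*-type capillary ECs, which cover much of the gas-exchange surface, had 456, 542, and 448 CPM in mice 2, 3, and 4 (482 ± 52.0). The *Aplnr*-type capillary ECs, the other capillary type, had 338, 343, and 336 CPM (339 ± 3.33). The 2 types did not overlap, but the difference missed the threshold (log2 0.47 ± 0.16, 95% interval 0.15 to 0.79, adjusted p = 0.068). With the mouse as a block, which pairs the cell types of the same animal, it passed (log2 0.47, adjusted p = 0.015).

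In larger vessels *Pdgfb* was lower. Arterial-like ECs had 81.9, 113, and 87.2 CPM (94.0 ± 16.6), and venous-like ECs had 79.3, 175, and 88.2 CPM (114 ± 52.6). *Pdgfb* was 3.54-fold lower in arterial-like than in *Aplnr*-type ECs (log2 −1.82 ± 0.20, adjusted p = 1.4e-10). Arterial-like and venous-like ECs overlapped, with a log2 difference of −0.30 ± 0.25 (95% interval −0.78 to 0.19, adjusted p = 0.67). Lymphatic-like ECs ranged from 111 to 270 CPM in 23 cells, and the 12 of them marked as doublets held 25 of the 73 UMIs.

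AT1-like cells were the other main source of *Pdgfb* transcripts, with 308, 174, and 253 CPM (245 ± 67.5). This was below both capillary types in every mouse, and 8.41-fold above AT2-like cells (log2 3.07 ± 0.18, adjusted p = 7.5e-21), which were at 24.4, 21.9, and 24.1 CPM (23.5 ± 1.34). The 141 AT1-like cells that held no UMI of an EC marker had a median depth of 12696 UMIs. Their *Pdgfb* level was 331, 184, and 277 CPM (264 ± 74.6). The 25 cells with such a UMI were deeper (median 32787 UMIs), at 201 ± 46.7 CPM. Since depth sets how often a marker UMI is found, this split does not show which cells carried EC RNA. The EC markers were at 35.5 CPM in AT1-like cells, against 9047 CPM in *Aplnr*-type and 12020 CPM in *Car4*-type ECs. The source of the *Pdgfb* UMIs was not tested. At least 1 UMI of each of *Pdgfa* and *Pdgfb* was found in 112 of 166 AT1-like cells (67.5%) and in 216 of 1070 AT2-like cells (20.2%). All 37 cells of the deeper AT1-like cluster had UMIs of both genes. In the shallower cluster, 79.1% of cells had a *Pdgfa* UMI and 59.7% a *Pdgfb* UMI. Of the 4 ligands' UMIs in AT1-like cells, *Pdgfa* made up 79.6% ± 3.36 and *Pdgfb* 20.3%.

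Stromal cells held little *Pdgfb*. Myofibroblast-like cells were at 0.893 CPM, under the 1.04 CPM of B-cell-like cells, and pericyte-like cells were at 9.52 CPM from 7 UMIs. By class, *Pdgfb* was at 285 CPM in ECs, 48.0 CPM in epithelial cells, and 2.27 CPM in stromal cells. It was higher in ECs than in stromal cells (log2 6.87 ± 0.24, adjusted p = 4.5e-12) and than in epithelial cells (log2 2.08 ± 0.15, adjusted p = 1.1e-08). It was also higher in epithelial than in stromal cells (log2 4.80 ± 0.26, adjusted p = 2.9e-10).

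*Pdgfd*, a ligand of PDGFRB that needs cleavage, was found in endothelium and in smooth muscle. *Car4*-type ECs were at 69.6, 72.6, and 63.0 CPM (68.4 ± 4.94), above every other type in each mouse. Arterial-like ECs were at 39.9, 53.3, and 61.2 CPM (51.5 ± 10.8), and smooth muscle-like cells were at 41.6, 45.0, and 46.7 CPM (44.4 ± 2.62), within the arterial range. *Aplnr*-type ECs followed at 36.1, 34.2, and 31.8 CPM (34.0 ± 2.20). Venous-like ECs were at 11.3, 26.3, and 28.6 CPM (22.1 ± 9.38).

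Within the endothelium, *Pdgfd* was higher in *Car4*-type than in *Aplnr*-type ECs (log2 0.97 ± 0.28, adjusted p = 0.024) and higher in arterial-like than in venous-like ECs (log2 1.21 ± 0.38, adjusted p = 0.037). The first call was lost without any 1 of the 3 mice (log2 0.93 to 1.01, adjusted p = 0.1 to 0.18), and so was the second (log2 1.05 to 1.35, adjusted p = 0.12 to 0.2) and without marked doublets (adjusted p = 0.051). The difference between arterial-like and *Aplnr*-type ECs did not pass (log2 0.63 ± 0.29, adjusted p = 0.17). Among mural cells, *Pdgfd* was lower in pericyte-like cells, at 2.55 CPM from 2 UMIs, than in smooth muscle-like cells (log2 −4.22 ± 0.68, adjusted p = 3e-06). Myofibroblast-like cells, at 7.66 CPM, were also lower than smooth muscle-like cells (log2 −2.55 ± 0.30, adjusted p = 2.8e-09). By class, *Pdgfd* was at 39.3 CPM in ECs, 15.7 CPM in stromal cells, and 0.189 CPM in epithelial cells. It was higher in ECs than in stromal cells (log2 1.2 ± 0.21, adjusted p = 0.00019) and lower in epithelial than in stromal cells (log2 −5.70 ± 0.43, adjusted p = 1.5e-08).

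*Pdgfc*, the other ligand that is secreted latent, was scarce, with a UMI in 143 of the 7642 cells. It was measured in 13 of 25 groups of cells. The *Col14a1*-type fibroblasts were at 2.08, 29.9, and 11.2 CPM (14.4 ± 14.2), venous-like ECs at 9.06, 14.3, and 14.3 CPM (12.6 ± 3.04), and smooth muscle-like cells at 12.07, 12.04, and 5.67 CPM (9.93 ± 3.69). Myofibroblast-like cells were at 7.56, 6.06, and 5.05 CPM (6.22 ± 1.26). Venous-like ECs were above myofibroblast-like cells in every mouse, and the other pairs of these groups overlapped. The highest mean of all groups was that of interstitial macrophage-like cells, at 14.96 CPM, which overlapped with the *Col14a1*-type fibroblasts. Alveolar macrophage-like cells were at 10.03 CPM, and each of these macrophage types held 5 UMIs. No UMI was found in pericyte-like cells, *Col13a1*-type fibroblasts, arterial-like ECs, or either capillary type. In pericyte-like cells, 0 of 134 cells had a UMI, which allows a share of cells with a UMI of up to 2.24% (3 counts, counting error only), and 43 of these cells had a median depth of 775 UMIs. By class, *Pdgfc* was lower in epithelial (1.79 CPM) than in stromal cells (6.43 CPM), with a log2 fold change of −1.45 ± 0.35 (adjusted p = 0.002). It was also lower in ECs than in stromal cells (log2 −1.86 ± 0.41, adjusted p = 0.0013).

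**Figure D2:**
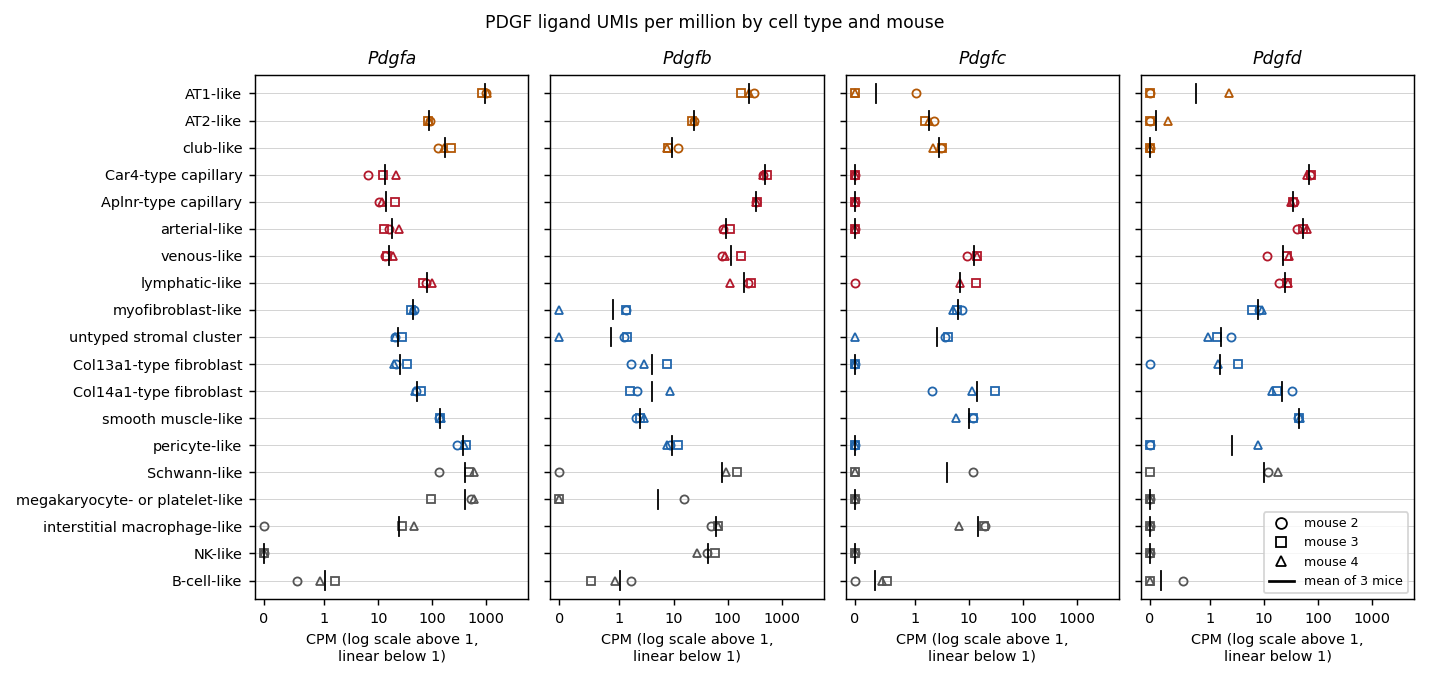
Each panel gives 1 ligand in CPM (logarithmic above 1, linear below) for 19 cell types, with 1 symbol per mouse, a line at the mean, and brown for epithelial, red for endothelial, blue for stromal, and grey for other types. *Pdgfa* was highest in AT1-like cells (948 CPM), *Pdgfb* in *Car4*-type capillary ECs (482 CPM), and *Pdgfd* in *Car4*-type ECs (68.4 CPM), and *Pdgfc* was low throughout.

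*Pdgfra*, the receptor that marks alveolar fibroblast and myofibroblast lineages, was high in 4 groups of stromal cells and low in the other named types. The highest level was in a cluster of 217 stromal cells that no marker list named and that was led by *Pdgfra*, with 1556, 1997, and 1620 CPM (1724 ± 238). It is called the untyped stromal cluster here, and it was not tested as a type because unnamed clusters were outside the fit of types. Its cells did count in the stromal class, with 4410 of the class's 9277 *Pdgfra* UMIs and 1882 of its 9993 *Pdgfrb* UMIs. Myofibroblast-like cells were at 515, 683, and 545 CPM (581 ± 89.9). *Col13a1*-type fibroblasts were at 342, 381, and 286 CPM (336 ± 47.6), and *Col14a1*-type fibroblasts at 331, 336, and 300.1 CPM (322 ± 19.5). The first 3 did not overlap, the last 2 did, and no other named type was above 10.3 CPM. Outside the named types, an unnamed cluster of 158 cells led by *Map1b* was at 174, 50.9, and 186 CPM from 32 UMIs, and an unnamed EC sub-cluster of 11 cells, 8 of them marked doublets, was at 72.2 CPM.

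*Pdgfra* was 1.66-fold higher in myofibroblast-like cells than in *Col13a1*-type fibroblasts (log2 0.73 ± 0.20, adjusted p = 0.0032). When cells had to show 500 genes and no more than 10% of UMIs from mitochondria, this difference was 0.22 on the log2 scale (adjusted p = 0.56), and with the 6 genes among those used for clustering it was 0.23 (adjusted p = 0.43). It also missed the threshold without mouse 4 (log2 0.64, adjusted p = 0.1). The difference between the *Col14a1*-type and *Col13a1*-type fibroblasts was 0.0016 ± 0.22 on the log2 scale (95% interval −0.42 to 0.43, adjusted p = 1.0). Against smooth muscle-like cells, which were at 9.95 CPM, myofibroblast-like cells were higher (log2 5.74 ± 0.29, adjusted p = 1.8e-21). In pericyte-like cells only 2 *Pdgfra* UMIs were counted, against 3577 in myofibroblast-like cells. The ratio of the levels was 219, with a 95% counting interval of 60.5 to 1810, and the fitted log2 fold change was 7.84 ± 0.54 (adjusted p = 1.1e-16). Both UMIs of the pericyte-like cells were in mouse 2, so without it no fold can be given.

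Epithelial cells had few *Pdgfra* UMIs. AT2-like cells held 97, or 5.69 CPM, and 87 of these lay in the 33 cells marked as doublets. Among the 427 cells that also held a UMI of a stromal marker, 13 cells held 94 of the 97 UMIs. The 643 cells without a stromal-marker UMI held 3. AT1-like cells were lower than AT2-like cells (log2 −2.51 ± 0.90, adjusted p = 0.028), a call that rested on 3 against 97 UMIs. It was lost without mouse 2 (log2 −1.82) or mouse 4 (log2 −2.44), and it changed direction without marked doublets (log2 0.67) and when the cells were clustered more finely (log2 0.75).

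*Pdgfrb* (ENSMUSG00000024620, plus strand, chr18:61045150-61085061, with no overlapping gene), the receptor of mural cells, was highest in pericyte-like cells, at 3577, 3020, and 3413 CPM (3337 ± 286). The untyped stromal cluster was at 829, 668, and 691 CPM (729 ± 86.9), and smooth muscle-like cells were at 751, 463, and 581 CPM (598 ± 145). These latter groups overlapped with each other and not with pericyte-like cells. Myofibroblast-like cells had 398, 448, and 391 CPM (413 ± 31.3), and *Col14a1*-type fibroblasts had 289, 212, and 236 CPM (246 ± 39.4). *Col13a1*-type fibroblasts had only 17.9, 11.9, and 24.0 CPM (17.9 ± 6.05). In 43 of the 134 pericyte-like cells the median depth was 775 UMIs, and *Pdgfrb* was at 1176 ± 452 CPM there, against 3492 ± 289 CPM in the other cluster.

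*Pdgfrb* was higher in pericyte-like than in myofibroblast-like cells by 7.41-fold (log2 2.89 ± 0.22, adjusted p = 2.1e-16) and higher than in smooth muscle-like cells (log2 2.27 ± 0.21, adjusted p = 4.9e-13). The fibroblast types differed most clearly in this receptor. It was higher in *Col14a1*-type than in *Col13a1*-type fibroblasts (log2 3.87 ± 0.32, adjusted p = 1.9e-14), and higher in myofibroblast-like cells than in *Col13a1*-type fibroblasts (log2 4.51 ± 0.30, adjusted p = 2.5e-18). *Pdgfrb* was lower in myofibroblast-like than in smooth muscle-like cells (log2 −0.62 ± 0.20, adjusted p = 0.019), a call lost under 5 alternatives, among them without mouse 2 (log2 −0.44, adjusted p = 0.14) and without mouse 4 (log2 −0.61, adjusted p = 0.14). ECs held 2.47% of the *Pdgfrb* UMIs, and 214 of their 243 UMIs lay in an unnamed sub-cluster of 11 cells, 8 of which were marked as doublets.

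**Figure D3:**
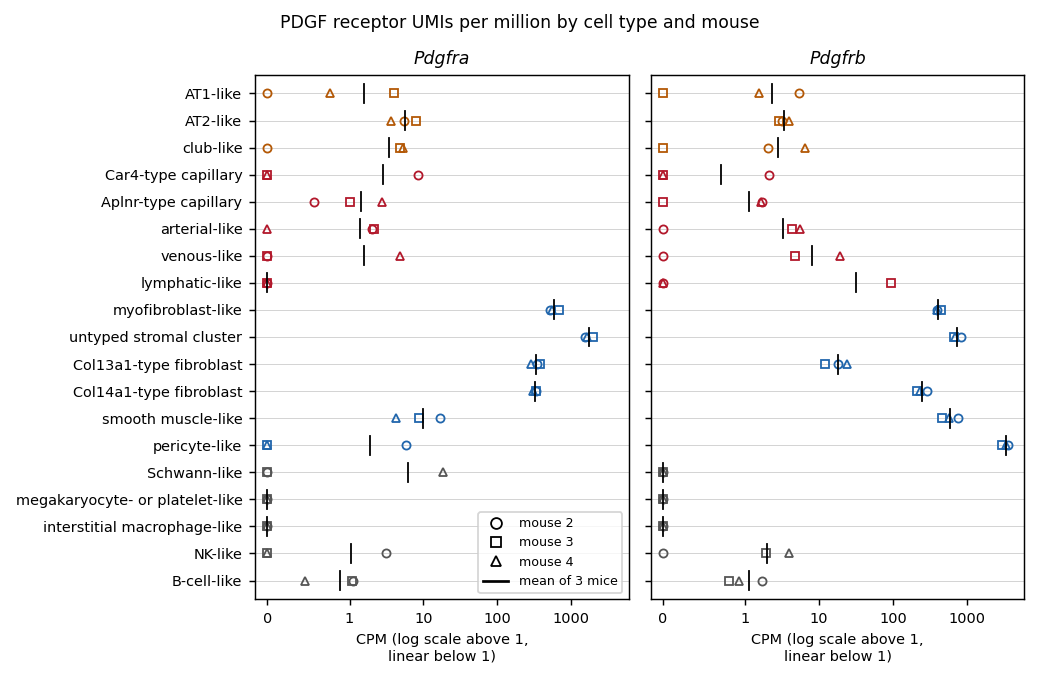
Each panel gives 1 receptor in CPM (logarithmic above 1, linear below) for 19 cell types, with 1 symbol per mouse, a line at the mean, and brown for epithelial, red for endothelial, blue for stromal, and grey for other types. *Pdgfra* was high in 4 stromal groups and near 0 in pericyte-like cells, and *Pdgfrb* was highest in pericyte-like cells (3337 CPM) and low in *Col13a1*-type fibroblasts (17.9 CPM).

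Stromal types differed in the balance of the receptors. Of the *Pdgfra* and *Pdgfrb* UMIs together, *Pdgfra* made up 94.8% ± 2.36 in *Col13a1*-type fibroblasts, 70.1% ± 4.84 in the untyped stromal cluster, 58.3% ± 2.00 in myofibroblast-like cells, and 56.9% ± 4.05 in *Col14a1*-type fibroblasts. It made up 1.59% ± 0.768 in smooth muscle-like cells and 0.0534% in pericyte-like cells. UMIs of both receptors were found in 214 of the 217 cells of the untyped stromal cluster and in 442 of 589 myofibroblast-like cells, where 24 cells had *Pdgfra* alone, 100 had *Pdgfrb* alone, and 23 had neither. Both were found in 66 of 100 *Col14a1*-type but in 16 of 210 *Col13a1*-type fibroblasts, where 132 cells had *Pdgfra* alone. In smooth muscle-like cells 263 of 290 had *Pdgfrb* alone and 18 had both, and in pericyte-like cells 106 of 134 had *Pdgfrb* alone and 2 had both. No *Col13a1*-type fibroblast had *Pdgfrb* alone, and no smooth muscle-like or pericyte-like cell had *Pdgfra* alone. The mean share of cells with both was 8.23% in *Col13a1*-type fibroblasts, 6.37% in smooth muscle-like cells, and 1.09% in pericyte-like cells, where independent detection of the receptors would give 5.86%, 6.21%, and 0.932%. In the *Col13a1*-type fibroblasts, 18 of the 39 *Pdgfrb* UMIs lay in the 19 cells marked as doublets.

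Depth sets how often a UMI is found. Median UMIs per cell were 12079 in the untyped stromal cluster, 10172 in myofibroblast-like cells, 9700.5 in *Col13a1*-type fibroblasts, and 6368 in pericyte-like cells, against 3959.5 in B-cell-like cells, where 0.393% of cells had a *Pdgfra* UMI and 0.449% a *Pdgfrb* UMI. Thinned to 1000 UMIs per cell, with shallower cells left out, *Pdgfra* was expected in 78.0% of the cells of the untyped stromal cluster, 37.4% of myofibroblast-like cells, 26.1% of *Col13a1*-type, and 25.6% of *Col14a1*-type fibroblasts. The unthinned shares were 100%, 79.1%, 70.5%, and 75%. *Pdgfrb* was expected in 90.3% of pericyte-like cells, 50.4% of the untyped stromal cluster, 43.6% of smooth muscle-like, and 32.2% of myofibroblast-like cells, against unthinned shares of 80.6%, 98.6%, 96.9%, and 92.0%. The share in pericyte-like cells was higher after thinning because cells under 1000 UMIs were left out.

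**Figure D4:**
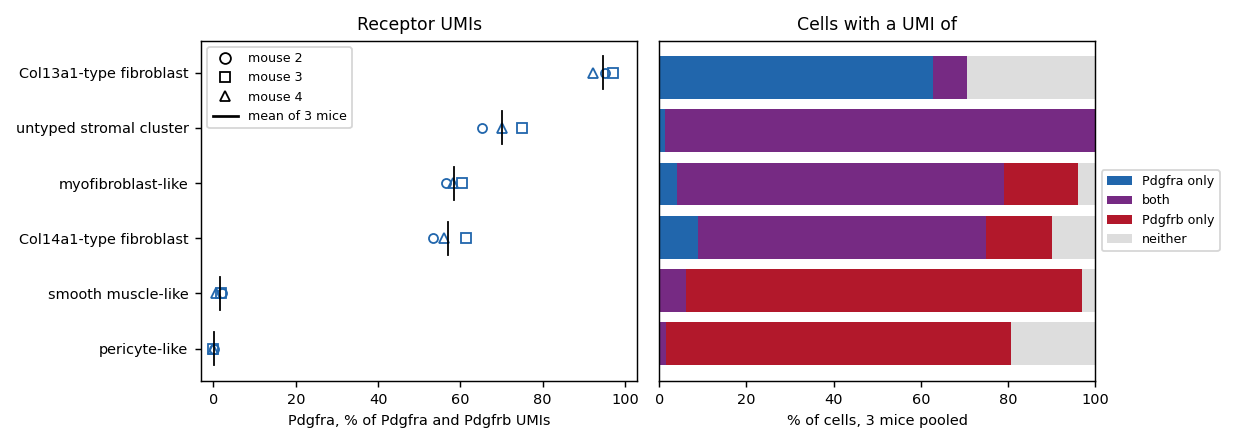
The left panel shows *Pdgfra* as a percentage of the UMIs of both receptors in 6 stromal groups, with 1 symbol per mouse and a line at the mean, and the right panel the percentage of cells of the 3 mice pooled with a UMI of *Pdgfra* only, both, *Pdgfrb* only, or neither. The share was highest, at 94.8%, in *Col13a1*-type fibroblasts and lowest, at 0.0534%, in pericyte-like cells, and cells with both receptors filled most of the untyped stromal cluster (214 of 217).

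The ligand makeup also differed between the vessel types. *Pdgfb* made up 85.5% ± 1.13 of the ligand UMIs in *Car4*-type and 87.6% in *Aplnr*-type ECs, but 57.7% ± 6.46 in arterial-like ECs, where *Pdgfd* made up 31.4% ± 3.55. In pericyte-like cells *Pdgfa* made up 96.8%. In smooth muscle-like cells *Pdgfa* made up 70.9% and *Pdgfd* 22.7%, and in myofibroblast-like cells *Pdgfa* made up 74.7%, *Pdgfd* 13.1%, and *Pdgfc* 10.7%. Pericyte-like cells and smooth muscle-like cells, which are known as neighbouring mural cells, thus differed in whether *Pdgfd* came with *Pdgfa*. In pericyte-like cells *Pdgfd* made up only 0.629% and *Pdgfb* 2.57% of the ligand UMIs.

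Over the 12 comparisons of cell types and classes, 45 of 72 differences of the 6 genes passed. Myofibroblast-like against pericyte-like cells gave 5 of the 6 genes past the threshold, where 21.5% of all 13373 genes passed. Pericyte-like against smooth muscle-like cells gave 4 (23.5% of all genes), myofibroblast-like against smooth muscle-like cells 4 (23%), myofibroblast-like cells against *Col13a1*-type fibroblasts 5 (26.4%), and *Col14a1*-type against *Col13a1*-type fibroblasts 4 (19.1%). AT1-like against AT2-like cells gave 3 (31.5%). In the endothelium, arterial-like against *Aplnr*-type ECs gave 1 (14.2%), *Car4*-type against *Aplnr*-type ECs 1 (7.26%), and arterial-like against venous-like ECs 2 (7.97%). Between classes, where 14233 genes were tested, all 6 passed for epithelial against stromal cells (67.4%) and for ECs against stromal cells (55.5%), and 4 passed for ECs against epithelial cells (66.3%). Among these 4 was *Pdgfrb*, higher in ECs (log2 2.48 ± 0.42, adjusted p = 0.0001). Of its 243 UMIs in ECs, 214 lay in the unnamed sub-cluster of 11 cells with 8 marked doublets. The comparisons between stromal types share libraries and types, so their counts are not independent. Some calls rested on few UMIs. *Pdgfc* passed in each comparison with pericyte-like cells or *Col13a1*-type fibroblasts, and in arterial-like against venous-like ECs, with 0 UMIs on 1 side. *Pdgfb* passed on 5 UMIs in myofibroblast-like cells, against 7 in pericyte-like cells and 10 in *Col13a1*-type fibroblasts, 7 of these 10 in marked doublets.

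**Figure D5:**
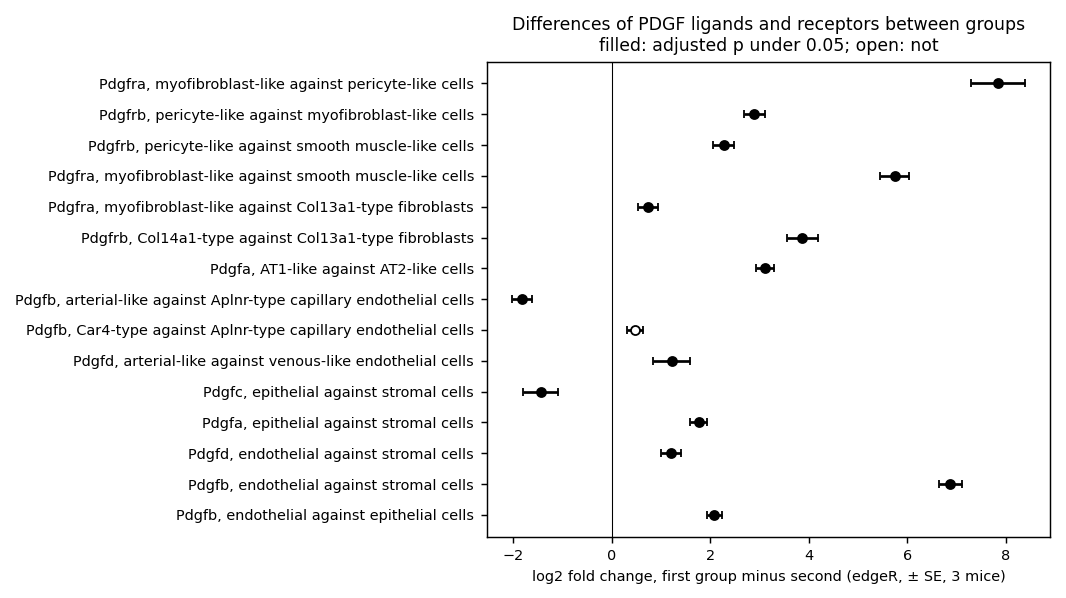
Points are log2 fold changes of 1 gene between a pair of groups, the first minus the second, with bars of ± 1 SE from 3 mice, and filled points passed the adjusted threshold of 0.05. *Pdgfra* in myofibroblast-like against pericyte-like cells (7.84) and *Pdgfb* in ECs against stromal cells (6.87) were farthest from 0, and *Pdgfb* in *Car4*-type against *Aplnr*-type capillary ECs (0.47) was the only open point.

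A fixed list of 26 other genes of the pathway, namely processing proteases, binding partners, and signalling proteins, was read from the same fit. Unlike the 6 genes, these may have been among the genes used for clustering. Between myofibroblast-like and pericyte-like cells, 6 were higher, 5 were lower, and 15 did not pass, with a median log2 difference of −0.17 (0.188 over all genes). The share called was 42.3%, against 21.5% of all genes. Higher in myofibroblast-like cells were *Pdgfrl*, a receptor-like gene (log2 6.21), and *Pcsk6*, a proprotein convertase (log2 4.36), and lower were the adaptor *Gab1* (log2 −1.70) and the kinase *Src* (log2 −1.39). Against *Col13a1*-type fibroblasts, 5 were higher in myofibroblast-like cells and none was lower, led by *Pcsk6* (log2 6.97) and *Plat* (log2 3.69). These were 19.2% of the list, below the 26.4% of all genes called in that comparison.

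Between AT1-like and AT2-like cells, 6 of the 26 were higher, 4 were lower, and 16 did not pass, with a median of −0.089 (−0.187 over all genes). The share called was 38.5%, against 31.5% of all genes. *Sparc*, a matrix protein that binds PDGF (log2 2.53), and the convertase *Pcsk5* (log2 2.15) were higher, and *Plcg1* (log2 −1.01) and *Pik3ca* (log2 −0.89), which act below the receptors, were lower. Between pericyte-like and smooth muscle-like cells, 7 were higher and 2 lower (34.6% called, against 23.5% of all genes). *Plat* (log2 4.26) and *Pik3r1* (log2 2.60) were higher in pericyte-like cells, and *Pdgfrl* (log2 −5.43) and *Pcsk6* (log2 −2.69) were lower.

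Between vessel types, only *Plat* and *Pcsk5* of the protease genes passed, and *Furin*, *Pcsk6*, *Plau*, and *St14* passed in none of these comparisons. For arterial-like against *Aplnr*-type ECs, 26.9% of the list was called, against 14.2% of all genes. For *Car4*-type against *Aplnr*-type ECs it was 11.5% (7.26%), and for arterial-like against venous-like ECs 7.69% (7.97%). For epithelial against stromal cells it was 68% (67.4%). *Plat* was higher in arterial-like than in venous-like ECs (log2 4.43) and than in *Aplnr*-type ECs (log2 2.63), and lower in *Car4*-type than in *Aplnr*-type ECs (log2 −1.15). *Pcsk5* was higher in arterial-like than in venous-like ECs (log2 4.68) and lower in *Car4*-type than in *Aplnr*-type ECs (log2 −1.82), where the co-receptor *Nrp1* was higher in *Car4*-type ECs (log2 1.28). *St14* was higher in epithelial than in stromal cells (log2 7.76), and *Plat* (log2 −6.72), *Pcsk5* (log2 −4.50), *Pcsk6* (log2 −2.51), and *Furin* (log2 −0.32) were lower. *Plat* (log2 −0.97) and *Pcsk6* (log2 −3.05) were also lower in ECs than in stromal cells. Of the 25 list genes tested between ECs and stromal cells, 11 were higher and 12 were lower in ECs. The share called was 92%, against 55.5% of all genes. The highest were *St14* (log2 2.88) and the phosphatase *Ptprj* (log2 2.24), and the lowest were *Pdgfrl* (log2 −6.72) and *Lrp1* (log2 −5.58).

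For each of the 6 genes, the 3 genes with the most similar levels across the 24 named types were found by Pearson's r of mean log2(CPM + 10), among 13373 genes. The types share libraries, and r is given as a description. Levels of *Pdgfra* were most like those of *Fgf7* (r = 0.981), *Cemip* (r = 0.975), and *Hhip* (r = 0.972), and those of *Pdgfrb* were close to Gm15912 (r = 0.951) and *Wisp1* (r = 0.945). *Pdgfd* was nearest to *Hecw2* (r = 0.896), 9430020K01Rik (r = 0.895), and *Sema3f* (r = 0.883), and *Pdgfb* to *Smagp* (r = 0.891), *Sh3tc2* (r = 0.87), and *Tead4* (r = 0.852). *Pdgfa* was nearest to *Src* (r = 0.84), *Map2* (r = 0.803), and *Kctd1* (r = 0.799). *Pdgfc*, with the fewest UMIs, was nearest to *Ctsb* (r = 0.724), *Col14a1* (r = 0.697), and *Egr1* (r = 0.678). With 1 CPM added in place of 10 CPM, 3 of 3 genes were shared for *Pdgfra*, 2 for *Pdgfrb*, and 1 for each ligand. *Hhip* and *Col14a1* were themselves markers used to name types, so their levels across types are not independent of the naming. The untyped stromal cluster, where *Pdgfra* was highest, was outside the 24 types.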

How the data were processed

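Whole lungs of 3 mice in RA were measured by scRNA-Seq with 10x 3′ v3 libraries. The authors processed each library with Cell Ranger 3.0.2 (mm10, per the submitters' processing notes) and deposited the UMI counts of every gene in every cell as raw, unnormalized numbers. The 6 members and all gene lists were chosen with earlier results of these data known.

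From the counts, those cells were kept that had 200 or more genes and no more than 20% mitochondrial UMIs. They were clustered with Seurat 5.3.0 (SCTransform, sctransform 0.4.2, R 4.3.3) on 3000 variable genes without the 6 members, 30 principal components, and a resolution of 0.8, and ECs again on 20 components. A type needed a mean log2 fold of at least 2 over its marker list and at least 3 markers in at least 10% of cells, thresholds set after the clusters had been seen. Of 30 clusters 4, and of 10 EC sub-clusters 1, kept no name. UMIs were summed per mouse and type (at least 10 cells, 66 sums) or class (12 sums) and tested with edgeR 4.0.16 (quasi-likelihood test, TMM, filterByExpr, Benjamini-Hochberg adjustment over all genes of a comparison, threshold 0.05). The mice are the replicates, and the libraries were not copies of each other (chi-square over degrees of freedom 8.73 to 36.3). Errors of fold changes are SE, those of levels SD. Intervals of counts are exact and cover counting error only.

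Named genes are the members, the 3 genes most alike to each across types, and, of the pathway list, the 2 highest and 2 lowest past the threshold in a comparison, of which some are given. Of the genes most alike to the members, 1 is not reported here. Further protease genes between classes (*Pcsk5*, *Pcsk6*, *Furin*, and *Plat* in ECs) were named after their values had been seen. Of 200 genes given a log2 change of 2 in simulated counts, edgeR recovered 99% for AT1-like against AT2-like cells, 93.5% for myofibroblast-like against pericyte-like cells, and 100% for ECs against stromal cells. The changed genes were drawn only from those above a floor of CPM in the second group. All genes had the same spread, and sums of the same mouse were drawn independently. *Pdgfc*, at 14.96 CPM or less in every group ranked, lay below this floor, so the recovery does not cover it. Nor does it cover other differences whose second group lay below the floor. Among them were *Pdgfra* in myofibroblast-like against pericyte-like cells (1.91 CPM in the latter). *Pdgfb* and *Pdgfd* in ECs against stromal cells (2.27 and 15.7 CPM in the latter) were others. The cell types of 1 mouse share an animal and so are paired. Their deviations from the type means correlated with r between −0.224 and 0.491 (median 0.0857) over 570 pairs, against a median of −0.0472 between mice, and the mouse was entered as a block in an alternative fit. Other alternatives were DESeq2 1.42.0, no TMM, no filter on low counts, stricter cell filters, no doublets, resolutions of 0.4 and 1.2, the members among the variable genes, and each mouse left out. Exclusion of a deep AT1-like cluster and of shallow pericyte-like and capillary clusters was added after the data had been seen. So was exclusion of the *Col14a1*-type fibroblasts with more cartilage-marker UMIs than UMIs of their own markers.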

Additional observations from a re-analysis of the deposited data

Results flagged for a closer look

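Signal was found in clusters that no comparison used. An unnamed cluster of 453 cells led by *Hpgd* and *Sox7*, with a median of 844 UMIs per cell, held 132 *Pdgfb* UMIs, or 295.5 ± 15.18 CPM (SD, n = 3), against 1.041 CPM in B-cell-like cells. Its EC markers were at 2012 CPM, against 9047 CPM in *Aplnr*-type ECs and 283.6 CPM in B-cell-like cells. A median of 0.563% of its UMIs per cell were mitochondrial. An unnamed cluster of 158 cells led by *Map1b* held 23 *Pdgfrb* UMIs, or 81.43 ± 23.59 CPM, against 1.13 CPM in B-cell-like cells. Of these 23 UMIs, 12 lay in its 12 cells marked as doublets. The same cluster held 32 *Pdgfra* UMIs, or 137.2 ± 74.95 CPM, 4 of them in marked doublets. The sources of these UMIs were not tested.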

How the results depend on the processing

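For 15 planned comparisons and 34 other differences, 16 alternatives were run, 4 of them chosen after the data had been seen. Of the planned comparisons' values, 230 kept their direction and side of the threshold, 8 lost and 2 gained significance, and none reversed. *Pdgfra* in myofibroblast-like cells against *Col13a1*-type fibroblasts lost its call with DESeq2 (log2 0.79, adjusted p = 0.62), with the stricter filter on cells (0.22), with the members among the variable genes (0.23), and without mouse 4 (0.64 to 0.75 over the mice left out). *Pdgfd* in arterial-like against venous-like ECs lost it without marked doublets (log2 1.21) and without any mouse (1.05 to 1.35). *Pdgfb* in *Car4*-type against *Aplnr*-type ECs passed with no filter on low counts (log2 0.46, adjusted p = 0.033) and with the mouse as a block (log2 0.47, adjusted p = 0.015), but no other planned comparison changed its call under the block. The number of calls was 45 and ranged from 33 to 38 with 1 mouse left out, and under the other alternatives it stayed within 1.5 times. Of the other differences' values, 476 were unchanged in direction and call, 40 lost and 2 gained significance, and 10 reversed. *Pdgfra* in *Col14a1*-type against *Col13a1*-type fibroblasts, near 0 in the edgeR fit, was −0.0586 without TMM, −0.0112 without the filter on counts, −0.00689 with the block, −0.0585, 0.127, and −0.0586 without mice 2, 3, and 4, −0.0218 with the stricter cell filter, and −0.00186 at a resolution of 0.4. *Pdgfra* in AT1-like against AT2-like cells was 0.67 without marked doublets and 0.75 at a resolution of 1.2, and *Pdgfb* in arterial-like against venous-like ECs was −0.418 to 0.011 with 1 mouse left out, the latter without mouse 3. The causes were not tested. Leaving out TMM moved all members of a comparison by −0.36 to 0.47 (log2). *Pdgfc* was too low to be fitted between types without mouse 3, with the stricter cell filter, or without cells with cartilage markers, and its order was limited by depth.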

Other observations

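Immune types other than B-cell-like cells held some ligand UMIs. *Pdgfb* was at 59.9 ± 9.19 CPM in interstitial macrophage-like cells and at 42.6 ± 16.0 CPM in NK-like cells (SD, n = 3). In the 116 NK-like cells without a UMI of an EC marker it was at 47.4 ± 15.9 CPM, a split that does not show which cells carried EC RNA. *Pdgfc* was at 14.96 ± 7.34 CPM in interstitial macrophage-like cells, from 5 UMIs in 114 cells. Outside the immune types, a mixed cluster of dividing cells had 162 ± 29.3 CPM of *Pdgfb*. EC markers were at 3318 CPM and immune markers at 2020 CPM in this cluster. Of its 200 *Pdgfb* UMIs, 57 lay in its 17 cells marked as doublets. These values were not compared by a test.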
